A study of Mus musculus with 4 samples.

Results

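The genes described here are those of the eukaryotic translation initiation factors, measured as RNA in mouse embryonic stem cells with and without Exosc3, which encodes part of the RNA exosome, a complex that degrades and trims nuclear RNA. They were taken by symbol, as every row whose symbol starts with Eif and a digit from 1 to 6, which takes in the Eif2ak kinases and the Eif4ebp repressors. This family was chosen with earlier results of these data known. The table held 47 such rows among 22883, and 46 genes were left once the higher row was kept for Eif1ax, the one symbol with several rows. Of the 46, 4 are Argonaute genes that the table lists under the older symbols Eif2c1 to Eif2c4 and that are not initiation factors. Other genes of the family, such as Eif4e, Eif4g1, Eif5 and Eif2ak1, were not analysed here. The cells were Exosc3 conditional knockout (CKO) clones of the V6.5 line, a mouse embryonic stem cell line, grown without feeders. In the Exosc3-depleted group (2 libraries) doxycycline was removed for 3 days. In the Exosc3-present group (2 libraries) the same kind of cells stayed in doxycycline, kept at 0.1 µg/ml. Both groups carry the conditional allele, and loss of doxycycline and loss of Exosc3 cannot be told apart in this design. The labels do not say how many clones were used or if each replicate was its own culture. The p-values therefore cover no more than the spread among the 4 libraries, and that spread may be technical.

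Initiation factors bring the ribosome to the start codon of an mRNA. eIF2 carries the initiator tRNA to the small ribosomal subunit, eIF2B reloads eIF2 with GTP, and the eIF2α kinases block that reloading under stress, which lowers translation in general while raising that of a few mRNAs such as Atf4. eIF3 holds the small subunit, eIF1 and eIF1A keep it scanning, and the eIF4 factors bind the mRNA cap and unwind the leader, under the control of repressors that hold eIF4E and are released by the kinase mTOR. Embryonic stem cells are known for a low rate of protein synthesis relative to their differentiated progeny.

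Levels are in FPKM, fragment counts divided by gene model length and by a library total, in total RNA depleted of ribosomal RNA. That library total was 38095698 and 41968325 fragments in the Exosc3-depleted libraries, against 60851774 and 55233386 in the Exosc3-present libraries. Of these totals, 42.4% and 44.0% lay in listed gene models in Exosc3-depleted libraries, against 49.7% and 51.8% in Exosc3-present ones. Exosc3 itself stood at 0.635 and 0.691 FPKM in Exosc3-depleted libraries, against 24.2 and 23.2 FPKM in Exosc3-present libraries, as the labels have it. Among tested rows the replicate libraries differed more in the Exosc3-depleted pair (SD of the log2 difference 0.432) than in the Exosc3-present pair (0.188). The 6 measured stem cell markers, of 8 listed, summed to 1295 to 1953 FPKM in Exosc3-depleted libraries against 3072 to 3081 FPKM in Exosc3-present ones. Of these markers 4 (Dppa5a, Esrrb, Tdgf1 and Zfp42) fell, where 30.1% of all tested rows were lower. Dppa5a (mean 1087 against 2218 FPKM) made up most of the sum. Pou5f1 (log2 -0.39, limma adjusted p = 0.167) and Utf1 (-0.22, 0.339) did not pass. The other 2 listed, Sox2 and Nanog, were not analysed here. The summed level of the 6 trophectoderm markers was 90.4 to 122 FPKM in Exosc3-depleted libraries against 22.2 to 24.1 in Exosc3-present ones. The 3 tested members, the keratins Krt7, Krt8 and Krt18, were all higher, where 12.6% of all tested rows were. Krt8 (mean 54.2 against 10.5 FPKM) and Krt18 (48.5 against 11.9) made up most of the sum. The other 3 were too low to test. Cdx2 had 0.245 and 0.156 against 0.023 and 0.017 FPKM, and Gata3 0.098 and 0.126 against 0 and 0.0056. Elf5 had 0 and 0 against 0.0371 and 0.016 FPKM. The sum of the 6 primitive endoderm markers was 43.5 to 44.7 against 10.8 to 13.2 FPKM, with 4 of 5 tested members higher. Most of that sum was Col4a1 (mean 39.0 against 9.76 FPKM). Gata6 (1.23 against 0.456 FPKM) and Sox17 (0.902 against 0.229) reached the mean of 0.5 FPKM needed for testing only through the Exosc3-depleted group. The count of higher members therefore depends in part on the filter. The 7 fibroblast markers summed to 2.67 to 3.27 against 3.18 to 3.34 FPKM. Of 4 tested 2 were higher (Twist1 and Pdgfra) and 1 lower (Thy1), and 2 of the 7 were at 0 in all libraries. Twist1 (mean 1.17 against 0.233 FPKM) and Pdgfra (0.735 against 0.284) also passed the filter only through the Exosc3-depleted group. Thy1 (0.179 against 2.24) passed it only through the Exosc3-present group. The part of these marker changes in the results below was not tested, and in bulk RNA fewer cells of a type and less RNA per cell cannot be told apart.

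Of the 46 genes 41 reached a mean of 0.5 FPKM and were tested with limma on log2(FPKM + 0.5), with Benjamini-Hochberg adjustment over all 9336 tested rows. Of the 41, 16 were lower in Exosc3-depleted cells at an adjusted p under 0.05, 0 were higher and 25 did not pass. That is 39.0% lower, where 30.1% of all tested rows were lower and 12.6% higher. At an unadjusted p under 0.05 the limma count of higher members was still 0, against 15.0% of all rows, and limma-voom on fragment counts also gave 0. The unadjusted count was 3 after median-of-ratios scaling, 4 after quantile normalization and 1 when scaled without the 50 highest rows. In these settings 18.8%, 16.9% and 16.5% of all rows were higher at a limma adjusted p under 0.05. The shares of all rows at the unadjusted threshold are at least that large and were not computed. Both Exosc3-depleted libraries lay below both Exosc3-present ones for 28 of the 41 members (50.9% of all tested rows) and above them for 0 (22.2% of all rows). The members' median log2 fold change was -0.42, beside -0.27 for all tested rows. Under the 3 other scalings, in the order just given, the members' median was -0.10, -0.06 and -0.08, beside 0.01, -0.05 and 0.03 for all rows. The summed FPKM of all 46 was 3327 and 3048 in Exosc3-depleted libraries, against 4580 and 4588 in Exosc3-present libraries. Without the 4 Argonaute genes, 15 of 39 tested members were lower. Eif5a2 (mean of all libraries just above the filter, 0.542 FPKM in Exosc3-depleted and 0.489 in Exosc3-present cells) and Eif2ak2 (just below it, 0.471 and 0.519 FPKM) were the members nearest to the filter on either side.

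The count of lower members changed with the scaling of the libraries and with single libraries. A fit with 1 library left out has a lone library in a group, and its p-values rest on the spread of the other pair. Here and below, p-values without an Exosc3-depleted library thus leave out the spread of the Exosc3-depleted pair, the larger of the pairs. Passing in such a fit is therefore weak evidence. After median-of-ratios scaling, which moves the median row to 0.01, 5 of 41 members (12.2%) were lower, beside 17.0% of all rows, and 0 were higher, beside 18.8%. The 5 were Eif4b, Eif2b3, Eif4a1, Eif4ebp3 and Eif2c2. Quantile normalization left 5 lower (12.2%, beside 19.2% of all rows) and made 1, Eif3e, higher (16.9% of all rows). Scaling to the total without the 50 highest rows left 3 lower (7.3%, beside 14.2% of all rows), which were Eif4b, Eif2b3 and Eif3h. Leaving out Exosc3-present replicate 1 gave 6 lower members (14.6%, beside 14.6% of all rows), and leaving out Exosc3-present replicate 2 gave 3 (7.3%, beside 11.6%). Without Exosc3-depleted replicate 1 there were 24 (58.5%, beside 40.6%), and without Exosc3-depleted replicate 2 there were 23 (56.1%, beside 50.5%). All 16 called members kept a negative log2 fold change in every setting in which they were tested, but Eif4b was the only one that passed in all of them.

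**Figure D1:**
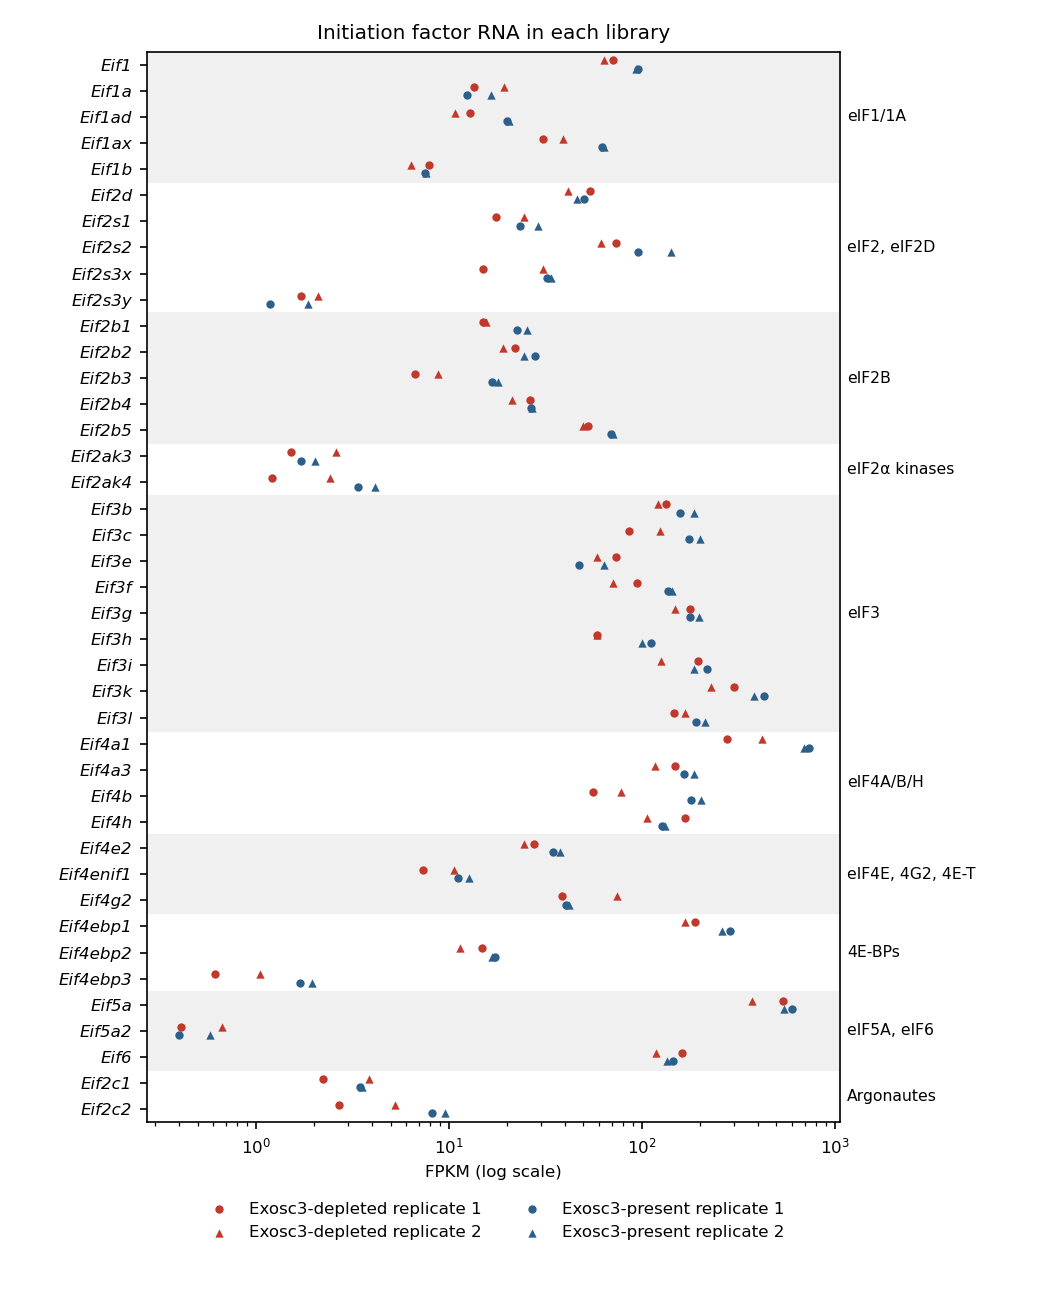
FPKM (log axis) of the 41 tested members in each library, grouped by role, with the Exosc3-depleted libraries drawn in red above the Exosc3-present libraries in blue, and replicate 1 as circles and replicate 2 as triangles. For Eif4b the Exosc3-depleted points (56.2 and 78.6) lie far left of the Exosc3-present points (181 and 204), whereas for Eif4g2 a single Exosc3-depleted point (74.9) stands right of the other libraries.

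**Figure D2:**
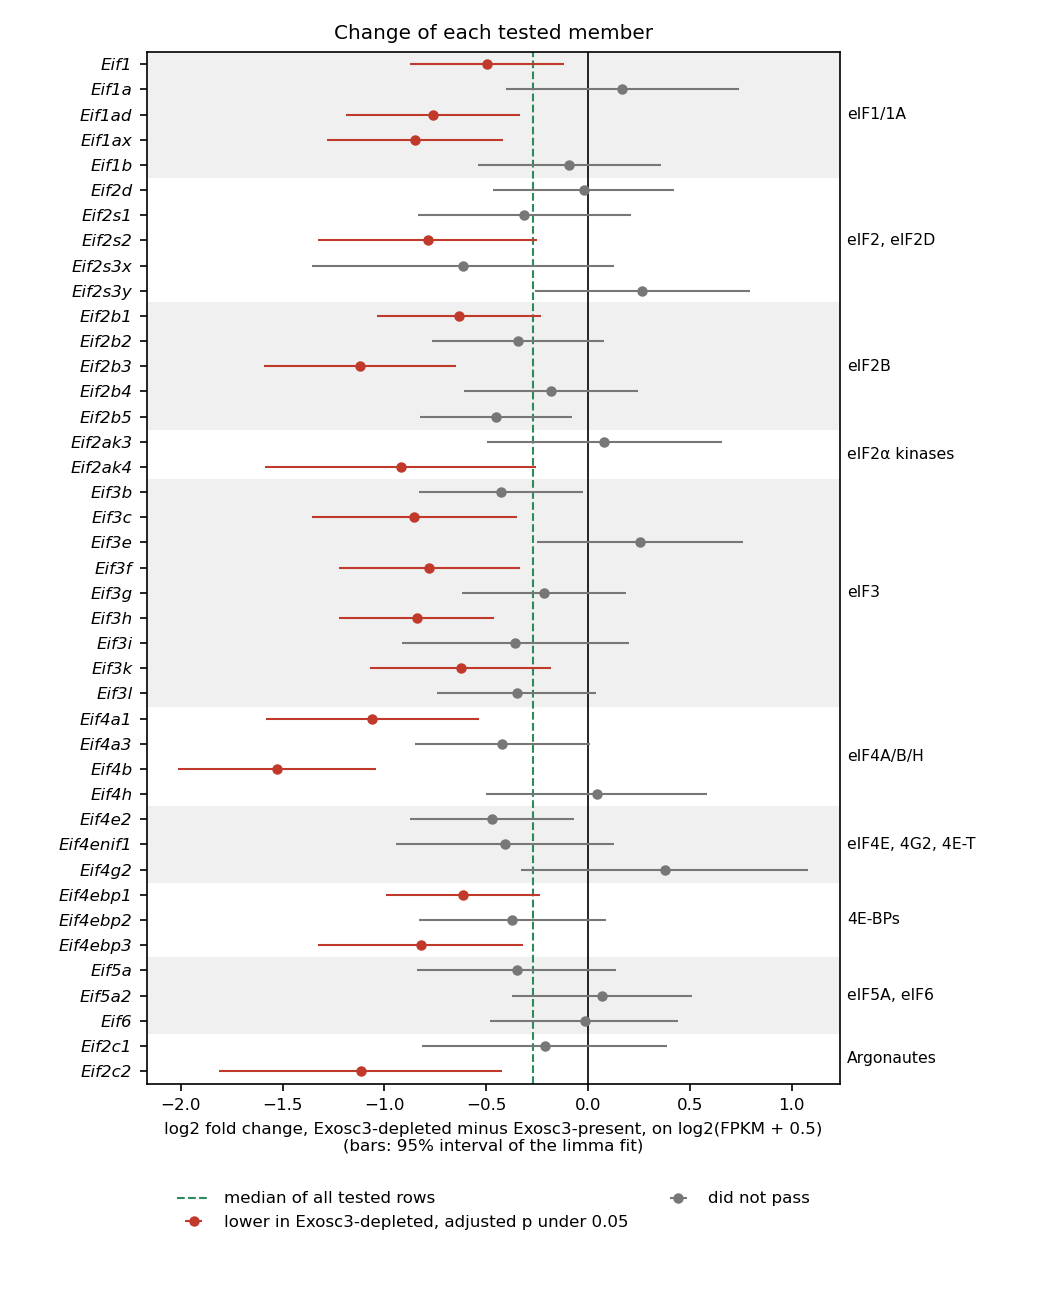
Log2 fold change of the 41 tested members (Exosc3-depleted minus Exosc3-present, on log2(FPKM + 0.5)), with bars for the 95% interval of the limma fit; red members passed at an adjusted p under 0.05, grey ones did not, and the green dashed line is the median of all tested rows at -0.27. The 16 red members lie between -1.53 for Eif4b and -0.50 for Eif1, and no member lies right of 0.38.

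The factors of the RNA helicase eIF4A held the largest change of the family. Eif4b, whose protein stimulates the helicase, had 56.2 and 78.6 FPKM in Exosc3-depleted libraries, against 181 and 204 FPKM in Exosc3-present libraries. These groups do not overlap, and the Exosc3-present mean was 2.86-fold higher (log2 -1.53, SE 0.21, 95% interval -2.01 to -1.04, limma adjusted p = 0.00172). Eif4a1, the helicase itself and the most abundant member in Exosc3-present cells, had 276 and 423 FPKM in Exosc3-depleted libraries, against 733 and 693 FPKM in Exosc3-present libraries. It fell by 1.06 on the log2 scale (SE 0.22, limma adjusted p = 0.00894), with the Exosc3-depleted libraries far apart from each other but both below the others. Its call ended under quantile normalization (adjusted p = 0.144) and under scaling without the 50 highest rows (0.0873). Eif4a3, the related helicase of the exon junction complex, stood at 148 and 117 FPKM in Exosc3-depleted libraries, against 167 and 187 FPKM in Exosc3-present libraries (log2 -0.42, adjusted p = 0.104). Without Exosc3-depleted replicate 1 Eif4a3 passed (log2 -0.59, adjusted p = 0.00558), without replicate 2 it was at -0.25 (0.16), and its sign turned positive under quantile normalization (0.03). Eif4h, which stimulates the helicase as eIF4B does, had 167 and 107 FPKM in Exosc3-depleted libraries on either side of 128 and 132 FPKM in Exosc3-present libraries (log2 0.04, 95% interval -0.50 to 0.59). Its fold change was -0.28 without Exosc3-depleted replicate 1 and 0.36 without replicate 2, where it passed (adjusted p = 0.0416).

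The sequences before the annotated starts of these 4 genes are shown because the genes were described together and had different values. Eif4a3 encodes the separate helicase of the exon junction complex, unlike Eif4a1 and its helpers Eif4b and Eif4h. Each is the 250 bases upstream of the start in RefSeq on GRCm38.p6, read 5′ to 3′ on the gene's strand. Capitals mark an E-box, CACGTG, or the YY1 core AAGATGGC.
Eif4b, chr15:102073523-102073772, plus strand: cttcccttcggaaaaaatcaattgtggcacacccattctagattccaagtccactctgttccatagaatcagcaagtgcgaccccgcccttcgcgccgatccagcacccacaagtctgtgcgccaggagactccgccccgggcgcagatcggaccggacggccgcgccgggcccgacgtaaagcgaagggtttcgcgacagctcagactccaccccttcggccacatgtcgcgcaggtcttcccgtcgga
Eif4a1, chr11:69672424-69672673, minus strand: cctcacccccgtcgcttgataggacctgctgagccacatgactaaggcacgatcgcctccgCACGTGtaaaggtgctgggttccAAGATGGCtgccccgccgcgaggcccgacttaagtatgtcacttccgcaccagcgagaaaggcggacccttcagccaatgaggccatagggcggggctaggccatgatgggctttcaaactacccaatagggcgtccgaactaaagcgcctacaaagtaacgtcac
Eif4a3, chr11:119300044-119300293, minus strand: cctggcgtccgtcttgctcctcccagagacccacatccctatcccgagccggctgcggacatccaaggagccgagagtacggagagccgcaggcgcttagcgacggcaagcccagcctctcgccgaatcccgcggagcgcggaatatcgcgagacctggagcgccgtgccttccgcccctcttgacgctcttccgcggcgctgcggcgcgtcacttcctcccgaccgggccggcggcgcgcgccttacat
Eif4h, chr5:134639410-134639659, minus strand: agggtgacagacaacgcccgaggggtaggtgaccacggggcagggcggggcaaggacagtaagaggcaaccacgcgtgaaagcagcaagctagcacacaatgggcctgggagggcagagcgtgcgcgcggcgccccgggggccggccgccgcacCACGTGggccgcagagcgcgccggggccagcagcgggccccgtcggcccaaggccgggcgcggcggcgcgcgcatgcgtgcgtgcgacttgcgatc
In these windows the E-box begins 189 bases before the start of Eif4a1 and 96 bases before that of Eif4h, and the Eif4a1 window also holds the YY1 core 166 bases before its start. None of the motifs searched was in the windows of Eif4b and Eif4a3. An E-box was thus found before one gene that fell and before one that did not pass.

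Of the 3 repressors that hold eIF4E, 2 fell, where 30.1% of all tested rows were lower. Eif4ebp1, the main repressor in most cells and a known target of ATF4, had 189 and 169 FPKM in Exosc3-depleted libraries, against 286 and 261 FPKM in Exosc3-present libraries. The groups do not overlap, and the change was log2 -0.61 (SE 0.16, limma adjusted p = 0.0204). Eif4ebp3 had 0.616 and 1.06 FPKM in Exosc3-depleted libraries, against 1.70 and 1.97 FPKM in Exosc3-present libraries, from 27 and 51 fragments against 119 and 125. It fell by 0.82 on the log2 scale (adjusted p = 0.0199), at a level far below that of Eif4ebp1. Eif4ebp2 had 14.9 and 11.5 FPKM in Exosc3-depleted libraries, against 17.3 and 16.9 FPKM in Exosc3-present libraries, and did not pass (log2 -0.37, adjusted p = 0.164), except without Exosc3-depleted replicate 1 (-0.56, adjusted p = 0.00475); without replicate 2 it was at -0.19 (0.245). The 2 calls ended without Exosc3-present replicate 1 (adjusted p = 0.237 for Eif4ebp1 and 0.0589 for Eif4ebp3) and without replicate 2 (0.137 and 0.149). Eif4ebp1 also lost its call under each of the other 3 scalings (adjusted p from 0.178 to 0.355), and Eif4ebp3 under scaling without the 50 highest rows (0.123) and with no filter on low values (0.0571). Atf4 had 45.4 and 50.2 FPKM in Exosc3-depleted libraries, against 123 and 133 FPKM in Exosc3-present libraries.

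No tested member of the cap-binding and scaffold group passed the test. Eif4e2, a cap-binding protein known for repressing translation, had 27.6 and 24.6 FPKM in Exosc3-depleted libraries, against 34.9 and 37.9 FPKM in Exosc3-present libraries (log2 -0.47, adjusted p = 0.0611). Its groups do not overlap, and it passed without Exosc3-depleted replicate 1 (-0.55, adjusted p = 0.00582) or 2 (-0.39, 0.0295). Eif4g2, a scaffold related to eIF4G that does not bind eIF4E, had 38.6 and 74.9 FPKM in Exosc3-depleted libraries, against 40.6 and 42.0 FPKM in Exosc3-present libraries. Only Exosc3-depleted replicate 2 was high, so the log2 fold change of 0.38 (limma adjusted p = 0.346) became 0.85 without replicate 1 and -0.10 without replicate 2. Eif4enif1, the carrier that brings eIF4E into the nucleus, was at 9.02 ± 2.40 FPKM in Exosc3-depleted cells and 11.9 ± 1.14 FPKM in Exosc3-present cells (SD, n = 2 each; log2 -0.41, adjusted p = 0.188), and passed without Exosc3-depleted replicate 2 (-0.67, adjusted p = 0.00199) but not without replicate 1 (-0.15, 0.399). Eif4e3 stayed below the filter at 0.0836 and 0.133 FPKM in Exosc3-depleted libraries, against 0.190 and 0.274 in Exosc3-present ones. For Eif4e1b, an oocyte form, the fragments numbered 1 and 0 in Exosc3-depleted libraries, against 1 and 0 in Exosc3-present libraries.

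The eIF2B complex, the exchange factor of eIF2, was lower in every subunit by value. Of its 5 subunits 2 passed, where 30.1% of all tested rows were called lower. Eif2b3, the gamma subunit of the catalytic part, had 6.71 and 8.86 FPKM in Exosc3-depleted libraries, against 16.7 and 18.0 FPKM in Exosc3-present libraries. The Exosc3-present mean was 2.23-fold higher, without overlap (log2 -1.12, SE 0.20, limma adjusted p = 0.00491). Eif2b1, the alpha subunit that senses phosphorylated eIF2, had 15.0 and 15.6 FPKM in Exosc3-depleted libraries, against 22.8 and 25.4 FPKM in Exosc3-present libraries (log2 -0.63, adjusted p = 0.023). Eif2b5, the catalytic epsilon subunit, stood at 52.7 and 49.8 FPKM in Exosc3-depleted libraries, against 69.4 and 71.1 FPKM in Exosc3-present libraries (log2 -0.45, adjusted p = 0.0559). It missed the threshold by little and passed without Exosc3-depleted replicate 1 (-0.49, adjusted p = 0.0107) or 2 (-0.41, 0.0222). Eif2b2 (log2 -0.34, adjusted p = 0.162) and Eif2b4 (-0.18, adjusted p = 0.453) did not pass; Eif2b2 passed without Exosc3-depleted replicate 1 (-0.44, adjusted p = 0.0213) but not without replicate 2 (-0.25, 0.157), and Eif2b4 turned positive under all 3 other scalings (0.13 to 0.16). Within the complex the changes ran over about 1 log2 unit. In each of the 5 the Exosc3-depleted libraries lay below the Exosc3-present ones, as in 50.9% of all tested rows. The call of Eif2b3 ended without Exosc3-present replicate 2 (adjusted p = 0.0524). That of Eif2b1 ended without Exosc3-present replicate 1 (0.201) or 2 (0.358) and under the other scalings (0.161 to 0.246).

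Among the subunits of eIF2 itself, Eif2s2, the beta subunit, was the one that fell. It had 74.1 and 61.4 FPKM in Exosc3-depleted libraries, against 95.9 and 142 FPKM in Exosc3-present libraries (log2 -0.79, SE 0.23, limma adjusted p = 0.0298). The Exosc3-present libraries differed widely from each other, and without Exosc3-present replicate 2 the change was -0.50 (adjusted p = 0.349). The call also ended under the other scalings (adjusted p from 0.177 to 0.187) and with no filter on low values (0.0666). Eif2s1, the alpha subunit that the stress kinases phosphorylate, had 17.7 and 24.6 FPKM in Exosc3-depleted libraries, against 23.4 and 29.0 FPKM in Exosc3-present libraries, with overlap (log2 -0.31, adjusted p = 0.292). It was at 0.00 to 0.02 under the other scalings, and passed without Exosc3-depleted replicate 2 (-0.55, adjusted p = 0.0103) but not without replicate 1 (-0.08, 0.684). The gamma subunit has an X-linked and a Y-linked gene. Eif2s3x had 15.1 and 30.8 FPKM in Exosc3-depleted libraries, against 32.5 and 34.1 FPKM in Exosc3-present libraries (log2 -0.61, adjusted p = 0.157). Exosc3-depleted replicate 1 alone stood apart, and the change was -1.11 without replicate 2 and -0.11 without replicate 1. Eif2s3y had 1.72 and 2.10 FPKM in Exosc3-depleted libraries, against 1.19 and 1.86 FPKM in Exosc3-present libraries (log2 0.27, adjusted p = 0.368). These genes are close copies, and reads shared between them make each value uncertain. Eif2d, which delivers initiator tRNA without eIF2, did not pass and had nearly equal means, 47.8 ± 8.51 FPKM in Exosc3-depleted and 48.1 ± 2.85 FPKM in Exosc3-present cells (SD, n = 2 each; 95% interval of the log2 change -0.46 to 0.42).

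The eIF2α kinases had low levels. Eif2ak4, which encodes GCN2, the kinase that senses uncharged tRNA, had 1.22 and 2.44 FPKM in Exosc3-depleted libraries, against 3.38 and 4.15 FPKM in Exosc3-present libraries. Its fragments numbered 242 and 533 in Exosc3-depleted libraries, against 1071 and 1195 in Exosc3-present ones, without overlap (log2 -0.92, SE 0.28, limma adjusted p = 0.036). The change was -0.53 without Exosc3-depleted replicate 1 and -1.30 without replicate 2. The call ended without Exosc3-present replicate 1 (adjusted p = 0.0586) or 2 (0.191), under median-of-ratios scaling (0.0581), without the 50 highest rows (0.198) and with no filter on low values (0.09), and held under quantile normalization. Eif2ak3, which encodes PERK, the kinase of the endoplasmic reticulum, had 1.52 and 2.60 FPKM in Exosc3-depleted libraries on either side of 1.72 and 2.03 FPKM in Exosc3-present libraries (log2 0.08, adjusted p = 0.812). Its sign followed single libraries, at 0.39 without Exosc3-depleted replicate 1 (adjusted p = 0.034) and -0.23 without replicate 2. Eif2ak2, which encodes PKR, the kinase that binds double-stranded RNA, was below the filter, with 0.249 and 0.694 FPKM in Exosc3-depleted libraries and 0.570 and 0.469 FPKM in Exosc3-present libraries. Its Exosc3-depleted values enclose the Exosc3-present ones, and they rest on 41 and 126 fragments, against 150 and 112.

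Of the 9 measured eIF3 subunits 4 fell, 0 rose and 5 did not pass, with a median log2 fold change of -0.43. For all tested rows 30.1% were lower and 12.6% higher, with a median of -0.27. Eif3c, a core subunit, had 86.0 and 124 FPKM in Exosc3-depleted libraries, against 175 and 200 FPKM in Exosc3-present libraries (log2 -0.85, SE 0.21, limma adjusted p = 0.0176). Eif3h had 59.1 and 58.7 FPKM in Exosc3-depleted libraries, against 112 and 99.96 FPKM in Exosc3-present libraries (log2 -0.84, adjusted p = 0.00638). Eif3f had 94.4 and 71.1 FPKM in Exosc3-depleted libraries, against 138 and 144 FPKM in Exosc3-present libraries (log2 -0.78, adjusted p = 0.0158). These 3 genes had no overlap between the groups, and eIF3f and eIF3h are partners in the same module of the complex. Eif3k, a small outer subunit and the most abundant eIF3 RNA per length, had 301 and 228 FPKM in Exosc3-depleted libraries, against 430 and 381 FPKM in Exosc3-present libraries (log2 -0.63, adjusted p = 0.034).

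Among the other 5 subunits, Eif3b (log2 -0.43, adjusted p = 0.0828), Eif3i (-0.36, 0.26), Eif3l (-0.35, 0.128) and Eif3g (-0.22, 0.346) had negative values. Eif3e, a subunit known for binding other protein complexes as well, had 74.1 and 58.5 FPKM in Exosc3-depleted libraries, against 47.4 and 63.9 FPKM in Exosc3-present libraries, with overlap (log2 0.26, adjusted p = 0.368). It was the one member called higher under quantile normalization (0.66, adjusted p = 0.0327). The 9 subunits thus ran from -0.85 to 0.26, although they are parts of 1 complex; differences between subunits were not tested. The calls of Eif3c, Eif3f and Eif3k ended under all 3 other scalings (adjusted p from 0.0894 to 0.262, 0.0919 to 0.178 and 0.25 to 0.379), and that of Eif3h under median-of-ratios (0.0884) and quantile normalization (0.0719). The call of Eif3k also ended with no filter on low values (0.0671). Without Exosc3-present replicate 1, Eif3f (adjusted p = 0.0754), Eif3h (0.113) and Eif3k (0.231) did not pass, and without replicate 2 Eif3c (0.104), Eif3f (0.121) and Eif3k (0.101) did not. Without Exosc3-depleted replicate 1 Eif3b (-0.49, adjusted p = 0.019) and Eif3i (-0.67, 0.00318) passed, and without replicate 2 Eif3l did (-0.45, 0.0201). With the other Exosc3-depleted library left out instead, Eif3b was at -0.36 (0.0649), Eif3i at -0.04 (0.835) and Eif3l at -0.25 (0.169). Under quantile normalization Eif3b (0.01), Eif3i (0.08), Eif3l (0.08) and Eif3g (0.24) had a positive sign, and Eif3g also under the other 2 scalings.

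**Figure D3:**
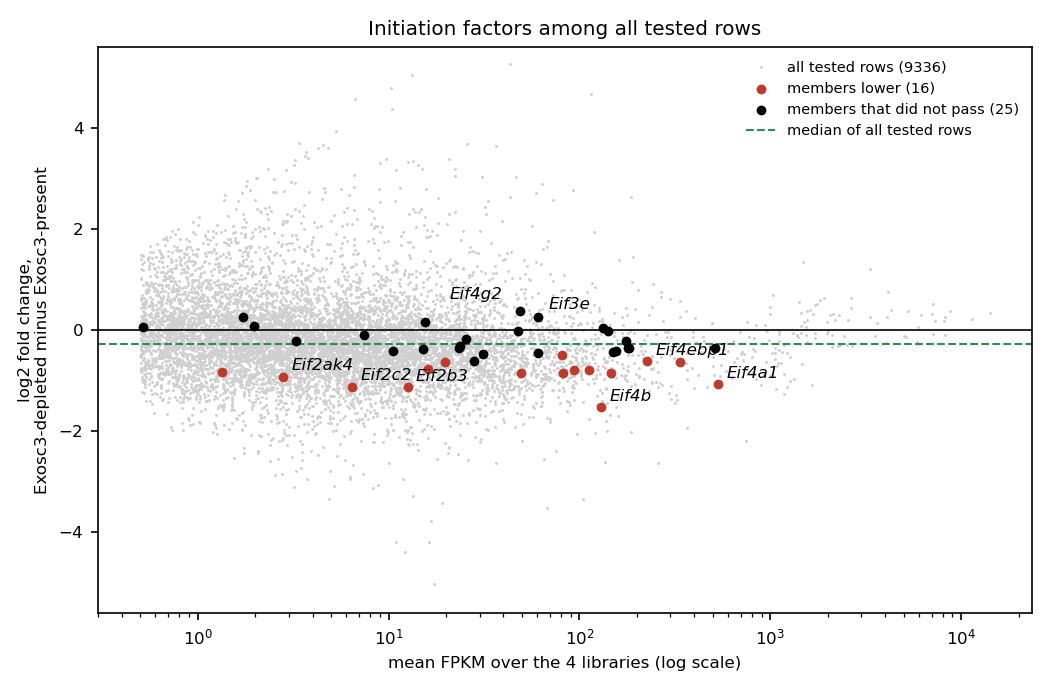
Log2 fold change (Exosc3-depleted minus Exosc3-present) against the mean FPKM of the 4 libraries on a log axis, with all 9336 tested rows in grey, the 16 members called lower in red and the 25 that did not pass in black; the dashed line is the median row at -0.27. The members sit within the cloud of other rows, with Eif4b at -1.53 lowest among them, and none reaches the large rises above.

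Of the 5 genes with symbols of the scanning factors eIF1 and eIF1A 3 fell, where 30.1% of all tested rows were lower. Eif1ax, the X-linked gene for eIF1A, had 30.9 and 39.3 FPKM in Exosc3-depleted libraries, against 62.5 and 64.0 FPKM in Exosc3-present libraries (log2 -0.85, SE 0.18, limma adjusted p = 0.00998). Eif1ad, placed here by its symbol, encodes an eIF1A domain protein and not eIF1A itself. It had 12.9 and 10.8 FPKM in Exosc3-depleted libraries, against 20.2 and 20.5 FPKM in Exosc3-present libraries (log2 -0.76, limma adjusted p = 0.0143). Eif1, the factor that guards start codon choice, had 70.8 and 63.6 FPKM in Exosc3-depleted libraries, against 95.9 and 94.0 FPKM in Exosc3-present libraries (log2 -0.50, adjusted p = 0.0422). In all 3 the groups do not overlap, and Eif1 was the smallest change that passed. Its paralogue Eif1b was at 7.16 ± 1.05 FPKM in Exosc3-depleted and 7.62 ± 0.083 FPKM in Exosc3-present cells (SD, n = 2 each; log2 -0.09, 95% interval -0.54 to 0.36). Eif1a, the paralogue of Eif1ax, had 13.5 and 19.4 FPKM in Exosc3-depleted libraries, against 12.4 and 16.7 FPKM in Exosc3-present libraries (log2 0.17, adjusted p = 0.605). A second row under the symbol Eif1ax (uc007ojt.1), which was not kept, had 31 and 49 fragments in Exosc3-depleted libraries, against 7 and 5 in Exosc3-present ones, the opposite direction at 0.496 and 0.711 against 0.0701 and 0.0552 FPKM. The 3 calls ended without either Exosc3-present replicate (adjusted p from 0.0761 to 0.354) and under the other 3 scalings (0.0717 to 0.697), and that of Eif1 also with limma-voom (0.0598).

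Neither eIF5A, which helps the ribosome through difficult peptide bonds, nor eIF6, which keeps the ribosomal subunits apart, had a gene that passed. Eif5a, the second most abundant member in Exosc3-present cells, had 539 and 375 FPKM in Exosc3-depleted libraries, against 603 and 544 FPKM in Exosc3-present libraries (log2 -0.35, adjusted p = 0.213). It passed without Exosc3-depleted replicate 1 (-0.61, adjusted p = 0.00572), was at -0.09 without replicate 2 (0.63) and was positive under quantile normalization (0.13). Eif5a2 was at 0.542 ± 0.186 FPKM in Exosc3-depleted and 0.489 ± 0.129 FPKM in Exosc3-present cells (SD, n = 2 each; log2 0.07). Eif6 had 162 and 119 FPKM in Exosc3-depleted libraries, enclosing 146 and 135 FPKM in Exosc3-present libraries (log2 -0.02, 95% interval -0.48 to 0.44).

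The 4 Argonaute genes encode the proteins that carry small RNAs to their targets. Eif2c2, which encodes AGO2, the Argonaute that can cut RNA, had 2.72 and 5.29 FPKM in Exosc3-depleted libraries, against 8.17 and 9.60 FPKM in Exosc3-present libraries. It fell by 1.12 on the log2 scale (SE 0.29, limma adjusted p = 0.0211), without overlap between the groups. The change was -0.69 without Exosc3-depleted replicate 1 and -1.54 without replicate 2. Eif2c1 had 2.24 and 3.88 FPKM in Exosc3-depleted libraries, enclosing 3.46 and 3.56 FPKM in Exosc3-present libraries (log2 -0.21, adjusted p = 0.535), and passed without Exosc3-depleted replicate 2 (-0.55, adjusted p = 0.00481), while it was at 0.13 without replicate 1 (0.446). Eif2c3 and Eif2c4 stayed below the filter in both groups, at mean levels of 0.404 and 0.0611 FPKM in Exosc3-depleted cells and 0.336 and 0.083 FPKM in Exosc3-present cells. The call of Eif2c2 ended without Exosc3-present replicate 2 (adjusted p = 0.0895), without the 50 highest rows (0.133) and with no filter on low values (0.0594).

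**Figure D4:**
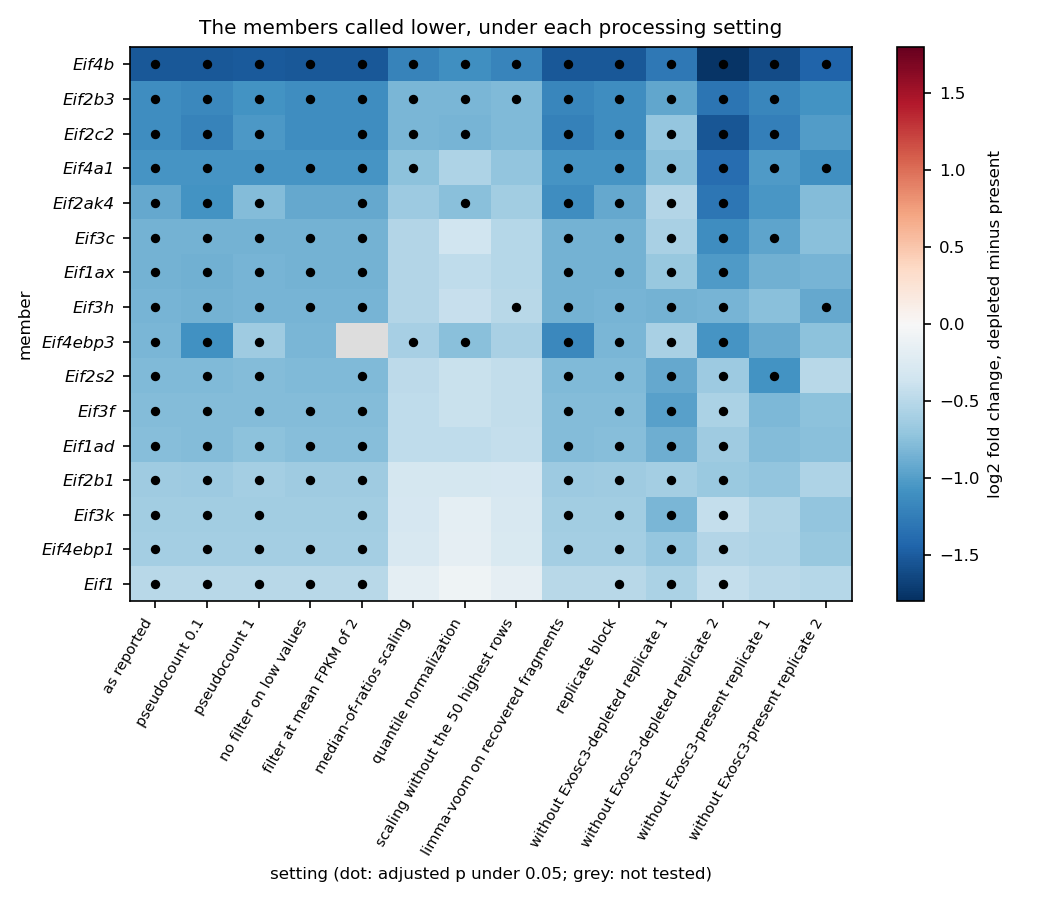
Log2 fold change (colour; Exosc3-depleted minus Exosc3-present) of the 16 members called lower, in rows from the largest to the smallest change, under the reported setting and 13 alternatives in columns; a dot marks an adjusted p under 0.05 and grey a member that was not tested. Eif4b has a dot in every column, from -1.77 to -1.10, while the 3 columns of other scalings hold 5, 5 and 3 dots.

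Other genes of the same pathway were taken from 5 lists that held 50 symbols, of which 30 had a row and all 30 were tested. Of these, 10 fell and 1 rose, beside the 30.1% and 12.6% of all rows. Among regulators of the eIF4F cap complex 5 of 11 fell. Pabpc4, a cytoplasmic poly(A)-binding protein, had 23.1 and 23.7 FPKM in Exosc3-depleted libraries, against 69.9 and 80.3 FPKM in Exosc3-present libraries (log2 -1.66, SE 0.17, limma adjusted p = 0.000658). Its abundant paralogue Pabpc1 was at 199 and 180 FPKM in Exosc3-depleted libraries, against 199 and 196 FPKM in Exosc3-present ones (log2 -0.06, adjusted p = 0.78). Larp1, which binds mRNAs of the translation machinery under mTOR control, had 10.8 and 14.3 FPKM in Exosc3-depleted libraries, against 27.2 and 29.9 FPKM in Exosc3-present libraries (log2 -1.17, adjusted p = 0.00408). Mknk1, a kinase of eIF4E, had 1.51 and 1.56 FPKM in Exosc3-depleted libraries, against 3.88 and 4.12 FPKM in Exosc3-present libraries (log2 -1.15, adjusted p = 0.00295). Rhebl1 (-0.98) and Paip2b (-0.95) also fell.

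Of the 9 genes listed with elongation and termination factors, not all of them such factors, 4 fell, where 30.1% of all tested rows were lower. Eef2k, the kinase that brakes elongation factor eEF2, had 1.71 and 1.63 FPKM in Exosc3-depleted libraries, against 6.67 and 6.82 FPKM in Exosc3-present libraries (log2 -1.74, SE 0.18, limma adjusted p = 0.000719). Eef1d, an exchange factor subunit of eEF1, had 63.1 and 53.1 FPKM in Exosc3-depleted libraries, against 126 and 131 FPKM in Exosc3-present libraries (log2 -1.14, adjusted p = 0.00247). Eef1g (-0.89) and Eef1e1 (-0.62) fell too, while Eef1a1, which delivers tRNA to the ribosome, was at 3366 and 4053 FPKM in Exosc3-depleted libraries, against 4280 and 4492 FPKM in Exosc3-present libraries, and did not pass (-0.25). Of 6 genes that act on eIF2 phosphorylation 1 fell, Ppp1r15b, a subunit of the phosphatase for eIF2α (-0.67, adjusted p = 0.0493). Mcts1, which works with Denr in reinitiation and recycling, was the one gene that rose, with 16.1 and 13.5 FPKM in Exosc3-depleted libraries, against 8.05 and 9.53 FPKM in Exosc3-present libraries (log2 0.72, adjusted p = 0.0227). Denr had a negative value (-0.58, adjusted p = 0.0749). Dohh, of the hypusination enzymes of eIF5A, did not pass (-0.06). Pabpc4, Larp1, Mknk1, Eef2k and Eef1d passed under every alternative run, whereas Mcts1 did not without Exosc3-present replicate 1 (adjusted p = 0.309) or 2 (0.144). Of the rest, Eef1g held with each library left out but not under 2 of the other scalings (adjusted p = 0.127 and 0.0868), and Rhebl1, Paip2b, Eef1e1 and Ppp1r15b ended without Exosc3-present replicate 1 (adjusted p from 0.0566 to 0.332) and without replicate 2 (0.0573 to 0.446). Under the other scalings Ppp1r15b (adjusted p from 0.195 to 0.322) and Eef1e1 (0.214 to 0.269) passed in none. Paip2b did not pass after median-of-ratios scaling (0.056) or without the 50 highest rows (0.201), nor did Rhebl1 after median-of-ratios scaling (0.0505). With no filter on low values Paip2b (0.103) and Ppp1r15b (0.0862) did not pass, nor did Ppp1r15b at a pseudocount of 0.1 (0.0511). Paip2b was at -0.49 without Exosc3-depleted replicate 1, against -0.95 as reported. Of the 30 related genes 5 were lower after median-of-ratios scaling, where 17.0% of all rows were lower. This number also changed in fits with 1 library left out.

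Gene model length and upstream sequence were set beside the calls as a description. The median model length of the 16 lower members, recovered from the FPKM values, was 1714 bases, and that of the tested members that did not pass was 1893 bases. Length and log2 fold change had a Spearman correlation of 0.06 over the 41 members. Length did go with the difference between the Exosc3-depleted replicates (replicate 2 minus replicate 1), with rho = 0.65 over these members and 0.46 over all 9336 rows, where all points share the same libraries. The same correlation for the Exosc3-present replicates was 0.53 over the members and 0.28 over all rows. The SD of that replicate difference over the members was 0.468 on the log2 scale, against 0.187 for the Exosc3-present pair. Long models such as Eif4g2, Eif2c2 and Eif2ak4 had more in Exosc3-depleted replicate 2, and short ones such as Eif3i, Eif3k and Eif5a had more in replicate 1.

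RefSeq windows upstream of a start were found for 34 of the 46 genes. The lower members Eif4ebp1, Eif4ebp3, Eif2b3, Eif3h and Eif2c2 had no window, so no motif could be sought in them. Eif1a, Eif3e, Eif3i, Eif4e1b, Eif4e3, Eif4g2 and Eif6 had none either. An E-box (CACGTG, bound by Myc and its relatives) was in the windows of 7 of the 34 genes, or 20.6%, where 6.86% of all 27025 genes with a window had one. By outcome these were 3 of 11 lower members (Eif4a1, Eif3f and Eif3k) and 4 of 20 that did not pass. The ETS motif CCGGAAGT was in 4 of 34 (3.23% of all genes), of which none was a lower member. The motif of ATF4 with C/EBP partners, TGATGNAA, was in 1 of 34, Eif2s3x (3.91% of all genes), and the YY1 core AAGATGGC in 1, Eif4a1 (1.83%). Both strands were searched, no 2 of these motifs overlapped in the printed windows, and a match is a string of letters, not a site. The member windows had a median GC content of 61.6%, beside 52.4% over all windows, and the medians were 57.6% for lower members and 64.0% for those that did not pass. Genes with several annotated starts count once if any window matched.

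Some members share sequence or position with other genes, which makes their values less certain. RefSeq names 11 pseudogenes after Eif genes, among them copies of Eif1, Eif2s3x, Eif5a and of Eif3e (as Eif3s6). By GENCODE gene spans on GRCm38 the lower members Eif1ad, Eif2s2 and Eif2c2 overlap a gene on the opposite strand (Banf1, a and Chrac1), and Eif4ebp3 overlaps AC115631.1 on the same strand. Members that did not pass overlap others as well, with Eif2d, Eif2b4 and Eif4enif1 opposite to Rassf5, Snx17 and Drg1. The untested Eif4e3 overlaps Gm20696 on the same strand. The libraries were stranded, but whether the counting used strand is not given in the sources used here. Eif4a1 holds 3 annotated small nucleolar RNA genes within its span and Eif4g2 and Eif2ak3 hold 1 each.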

How the data were processed

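Total RNA freed of ribosomal RNA was sequenced as stranded paired-end libraries, per the labels' protocols. Per the file headers, the authors deposited 1 table of FPKM values, with UCSC identifiers and a column for each of 4 libraries. Tools named in the submitters' processing notes are edgeR, bedtools, Picard, STAR and Bowtie2, with the build mm9; no role or version is given, so the counting step is not given in the sources used here. Whole fragments and model lengths were recovered from the spacing of the FPKM values: all 15471 rows above 0 came out whole within 0.004 of a fragment (wider at high counts). Fragments were used for depth, lengths and limma-voom only.

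Groups were compared on log2(FPKM + 0.5) by limma 3.58.1 under R 4.3.3, with the prior variance following mean level and no covariate. Rows averaging under 0.5 FPKM were left out; p-values are two-sided and the threshold is 0.05 after adjustment. Log2 fold changes on this scale understate the change of low genes. N-fold values are ratios of mean FPKM. The fitting step was run on simulated data with the same spread in both groups and no shift of most rows. That simulation therefore cannot show how the calls behave under the unequal spread and shifted median found here. The members and lists were chosen with earlier results of these data known. Per-library values were given by rule for members that passed and for the kinase, repressor, eIF4A, eIF4E and eIF4G genes; listed genes were named at a log2 change of at least 1. Values of other members, and Rhebl1, Paip2b, Pabpc1, Eef1g, Eef1e1, Eef1a1, Ppp1r15b, Mcts1, Denr and Dohh, were chosen after they were seen. Alternatives were other pseudocounts, filters and scalings, limma-voom, a replicate block, and fits that omit 1 library, when the lone library is assumed to vary like the other pair. Coordinates and promoters are from RefSeq on GRCm38.p6, which differs from the mm9 build of the files.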

Additional observations from a re-analysis of the deposited data

How the results depend on the processing

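The number of members called lower was 16 as reported, 5 after median-of-ratios scaling, 5 after quantile normalization and 3 when scaled without the 50 highest rows. With 1 library left out it ran from 3 to 24. The number called higher was 0 as reported, where 12.6% of all rows were higher, and 1 after quantile normalization, where 16.9% were. It also changed in fits with 1 library left out. Of the related translation genes 10 were lower as reported, 5 after median-of-ratios scaling and 6 without the 50 highest rows, and 6 to 19 with 1 library left out; 1 was higher as reported and 0 to 3 with 1 library left out. Pseudocounts of 0.1 and 1 gave 16 lower members each, beside 29.6% and 30.2% of all rows. The filter at 2 FPKM gave 15 of 37 tested members (33.5% of all rows), no filter 11 of 46 (18.7%) and limma-voom 15 of 41 (29.4%). The replicate numbers were not shown to pair the libraries (correlation of same-numbered deviations 0.24, with 2 pairs). With the replicate block 18 of 41 members were lower, the same 16 plus Eif2s3x and Eif4e2, and 13 of 30 related genes were lower. In that setting 37.1% of all rows were lower. Reversed signs concerned only members that had not passed. After median-of-ratios scaling the log2 fold changes were 0.062 for Eif2c1, 0.21 for Eif1b, 0.10 for Eif3g, 0.29 for Eif2d, 0.13 for Eif2b4, 0.30 for Eif6 and 0.00 for Eif2s1. After quantile normalization they were 0.01 for Eif3b, 0.084 for Eif3i, 0.24 for Eif3g, 0.13 for Eif5a, 0.14 for Eif2b4, 0.014 for Eif2s1, 0.41 for Eif6, 0.38 for Eif2d, 0.19 for Eif1b, 0.082 for Eif3l and 0.026 for Eif4a3. Scaled without the 50 highest rows they were 0.023 for Eif2s1, 0.32 for Eif2d, 0.16 for Eif2b4, 0.086 for Eif2c1, 0.33 for Eif6, 0.23 for Eif1b and 0.13 for Eif3g. With 1 library left out the values ran from -0.084 to 0.42 for Eif1a, -0.23 to 0.049 for Eif1b, -0.20 to 0.16 for Eif2d, -0.23 to 0.39 for Eif2ak3, -0.28 to 0.36 for Eif4h, -0.10 to 0.85 for Eif4g2, -0.11 to 0.25 for Eif5a2, -0.24 to 0.21 for Eif6 and -0.55 to 0.13 for Eif2c1. The 3 scalings put the median row between -0.05 and 0.03, where it was -0.27 as reported. Fits with 1 library left out take their spread from the remaining pair, and the Exosc3-depleted pair varied more; the cause of the changed counts was not tested further. The members with the fewest fragments were Eif4e1b, Eif4e3, Eif2c4 and Eif4ebp3.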
